A study of Mus musculus with 4 samples.

Results

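The genes described here are 54 mouse genes that interferon signalling is known to induce and whose products act on viral nucleic acid, on translation, on membranes or on protein modification. They were taken as a list of symbols by known function, and the list was made with earlier results of these data known. Other interferon-inducible GTPases, nucleic acid sensors and antigen presentation genes were put on separate lists. Some members, such as Mx1, Mx2, Zbp1 and Ifi204, also belong to these classes by function. All 54 were found among the 55401 genes of the deposited tables. The study measured polyadenylated RNA from mouse optic nerves in 4 libraries, 2 labelled Dor WT and 2 labelled Dor cKO, the usual short form for a conditional knockout. Dor is another name of Trp53inp2, a gene whose protein works in autophagy and as a nuclear cofactor, and the series' title names mature oligodendrocytes as the cells of interest. The sources used here do not give the Cre driver, the allele, the sex, age and strain of the mice or the number of animals behind each library. An age-like tag is part of the table names of Dor WT and is absent from those of Dor cKO, so an age difference and the genotype cannot be told apart. Nothing says that the 2 libraries of a group came from separate animals, so the p-values measure only the spread between these libraries, which may be technical.

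Type I and type III interferons bind receptors that signal through JAK kinases to transcription factors in the nucleus. These bind the interferon-stimulated response element, a paired GAAA repeat in the promoters of target genes, while interferon gamma acts on a different element. The proteins made from the target genes restrict viruses in the cell that makes them, and in the nervous system microglia, astrocytes, vessels and oligodendrocytes can all express them.

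The promoters of these genes are shown first, since the repeat that defines the response element can be read in them. RefSeq start sites on build GRCm38.p6 gave 48 promoters for 40 of the 54 genes, each from 250 bases before the start to 50 after it. No entry was found for Parp14, Ifi27l2a, Oas2, Zbp1, Tor3a, Mx1, Ifi204, Mx2, Oas1b, Parp9, Ifi27, Ly6e, Rtp4 and Usp18. The core searched was GAAANNGAAA, where N is any base, on both strands and with matches allowed to overlap. At least 1 match was present in 18 of the 40 genes (45.0%), against 3.99% of all 27025 genes with an entry. Counted by promoter, it was 20 of 48, against 3.44% of all 32851 promoters of the same length. The sequences below were chosen to show runs of matches, and in each line the capitals mark the bases that lie in a match, with the gene read 5′ to 3′ and every window ending before the first transcribed base.

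Isg15: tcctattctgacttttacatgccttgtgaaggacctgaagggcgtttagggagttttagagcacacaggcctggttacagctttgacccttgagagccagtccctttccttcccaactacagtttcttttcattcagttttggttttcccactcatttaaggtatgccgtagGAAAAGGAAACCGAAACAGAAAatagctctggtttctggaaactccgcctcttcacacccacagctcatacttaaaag
Ifit1: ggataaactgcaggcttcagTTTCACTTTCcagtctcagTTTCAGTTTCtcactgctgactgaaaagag
Ifit3: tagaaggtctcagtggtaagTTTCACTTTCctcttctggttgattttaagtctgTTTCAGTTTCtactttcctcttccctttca
Oas1a: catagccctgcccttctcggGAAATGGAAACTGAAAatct
Oas1c: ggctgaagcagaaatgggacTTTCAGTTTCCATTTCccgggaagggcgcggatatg
Bst2: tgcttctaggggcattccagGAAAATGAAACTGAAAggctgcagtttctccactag

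The Isg15 window lies at chr4:156200819-156201068 on the minus strand and holds 3 overlapping matches in a run of 22 bases. The Ifit1 window, at chr19:34640765-34640833 on the plus strand, holds 2 separate matches that read as the reverse complement. The Ifit3 window, at chr19:34583353-34583436 on the plus strand, is repeated without any difference over its 84 bases upstream of the neighbouring gene Ifit3b, at chr19:34607749-34607832, and the promoters of both genes were identical at 258 of 274 aligned positions (94.2%). The Oas1a window, at chr5:120907526-120907565, and the Oas1c window, at chr5:120812593-120812648, both on the minus strand, carry the same run of 16 bases, on opposite strands of the 2 genes. The Bst2 run, in a window at chr8:71537567-71537622 on the minus strand, equals that of Oas1a at 14 of 16 bases. A match says only that these letters are present, and binding was not measured.

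Among the 18 genes with a match, 15 had one before the start and 3, Ifitm3, Trim21 and Eif2ak2, had matches after the start only. Promoters with 2 or more matches were 9 of the 48 promoters (18.8%), against 0.225% of all promoters. The core of the interferon gamma element, TTCNNNGAA, was found in 7 of the 40 genes (17.5%), against 9.55% of all genes with an entry. The plot of match positions shows them at varied distances from the start.

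**Figure D1:**
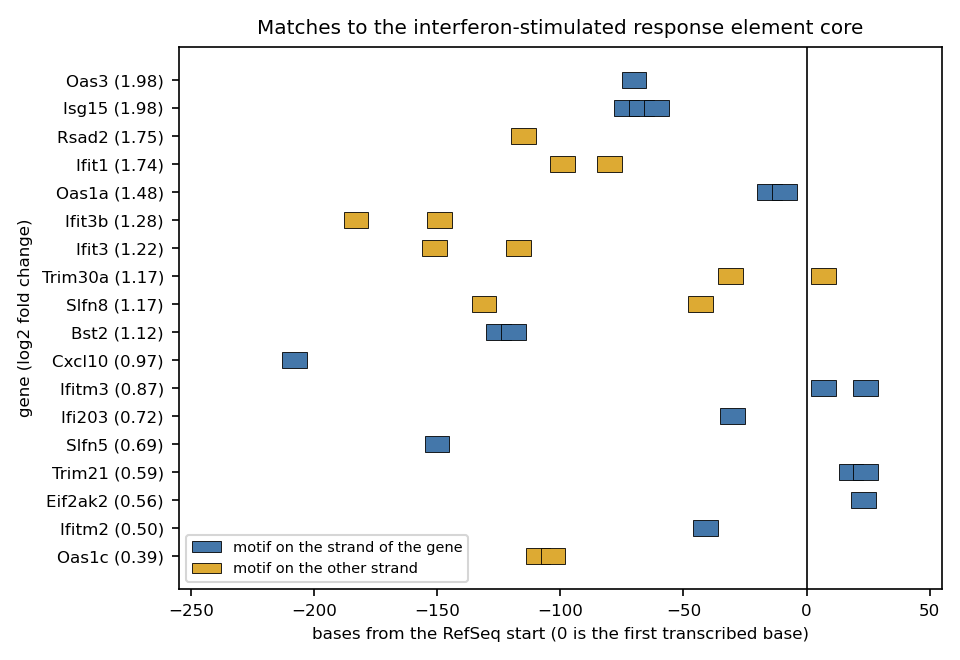
Position of each match to the response element core in the 18 genes that have one, in bases from the RefSeq start, with 0 as the first transcribed base. Genes are ordered by log2 fold change (in brackets), blue boxes read GAAANNGAAA on the strand of the gene and yellow boxes on the other strand; 3 genes have matches to the right of the start only.

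Library totals ran from 17263830 to 21595832 expected counts, so 3 counts, taken as the floor, correspond to 0.139 to 0.174 CPM, the unit of counts scaled to a fixed library size. Trp53inp2 was read beside the genotype label and had 138 and 134 CPM in Dor WT against 105 and 107 CPM in Dor cKO. It was 1.28-fold lower in Dor cKO (log2 fold change -0.36, SE 0.04, adjusted p 2.73e-08). Oligodendrocyte markers were also lower, in 10 of 10 cases (median -0.81). A fall of Trp53inp2 from the knockout and one from less oligodendrocyte RNA cannot be told apart here, so the label was not verified. Of 16751 genes tested with edgeR's quasi-likelihood test, 2399 were higher (14.3%) and 2248 lower (13.4%) in Dor cKO at an adjusted p under 0.05. The mean fragment length was 245.3 and 245.5 bases in the Dor cKO libraries and 259.6 and 260.0 bases in those of Dor WT. With a trend over gene length removed, 51 of the 54 effector genes were called, as without it, and their median log2 fold change was 0.95 in place of 0.96. This setting adjusts for gene length only. A difference in preparation that follows the groups and the genotype cannot be told apart.

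All 54 effector genes passed the filter on low counts, and each lay above its limit of 0.475 CPM in both libraries of both groups. In Dor cKO 51 of them were higher, none was lower and 3 were not called, beside the 14.3% of all tested genes that were higher. Since the list was chosen with earlier results of these data known, the comparison with all genes is a description and not a test. The 3 without a call were Oas1c, Phf11d and Epsti1. The median log2 fold change of the 54 was 0.96, with quartiles at 0.59 and 1.27 and a range from 0.34 to 2.08, while the median of all tested genes was -0.0036. A rise of at least 1 on the log2 scale was measured in 25 genes, against 0.734% of all tested genes that were called at that size. A further 22 lay between 0.5 and 1, and 7 below 0.5. Both Dor cKO libraries were above both Dor WT libraries in 53 of the 54 genes, against 30.2% of all tested genes, and only the Phf11d values overlapped. When the coefficient of variation between replicates was set at 0.1, above the 0.0348 that was estimated, 49 of the 54 genes were higher, against 4.2% of all tested genes, and DESeq2 called 45, against 10.7% of the genes it gave an adjusted p. In whole nerves, a higher level from more cells of a type and one from more RNA per cell cannot be told apart.

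**Figure D2:**
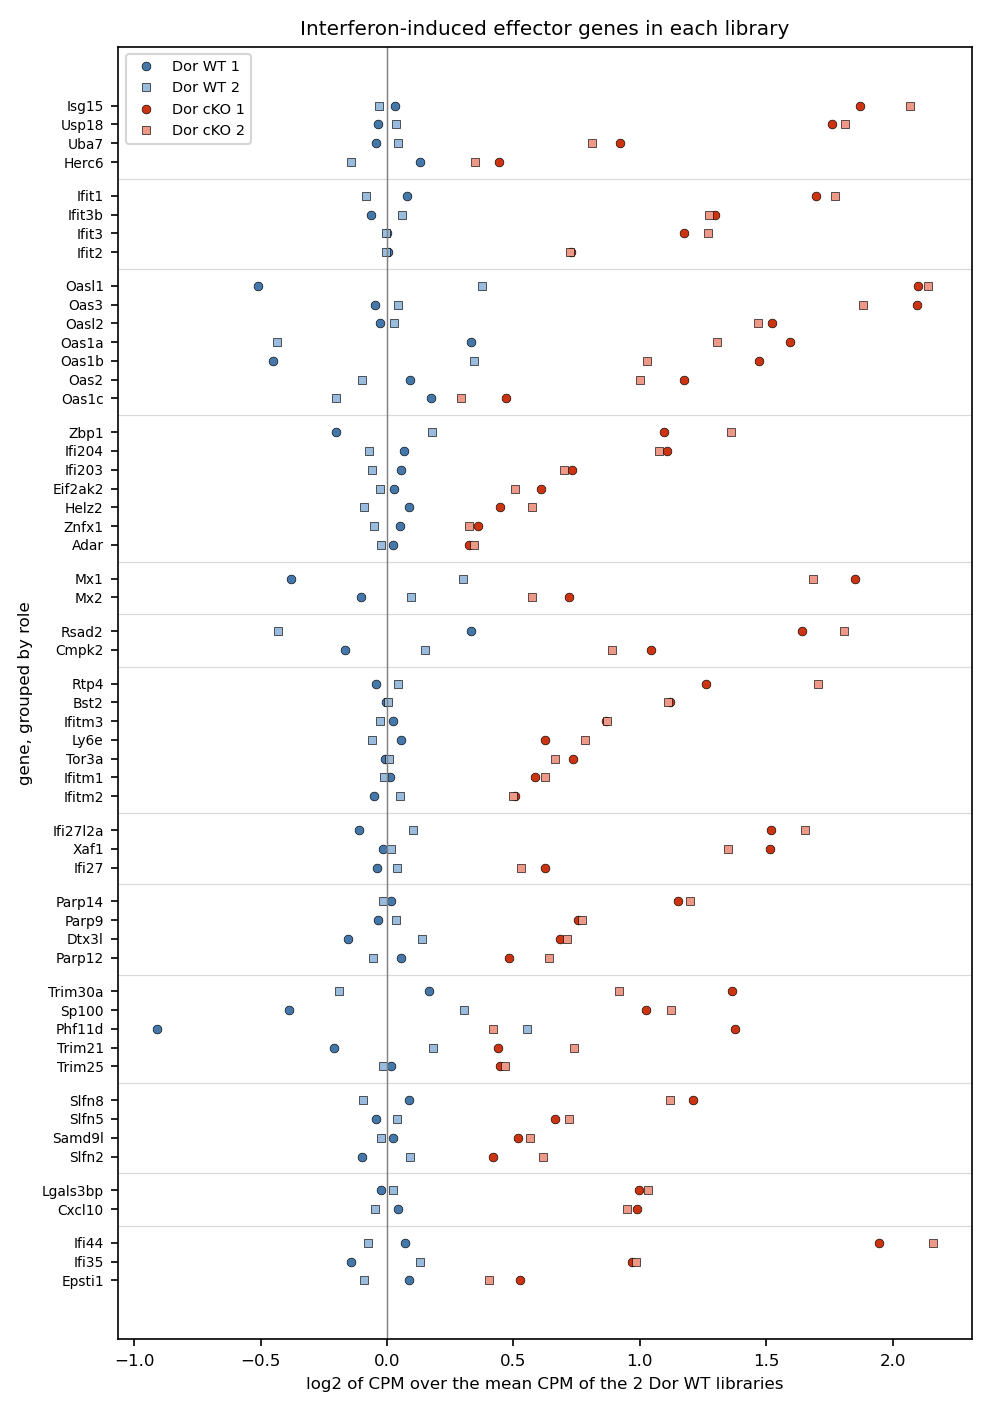
CPM of each effector gene in each library, as log2 of its ratio to the mean of the 2 Dor WT libraries; circles are replicate 1 and squares replicate 2, blue for Dor WT and red for Dor cKO, and grey lines part the roles. The red points lie to the right of the blue points for every gene except Phf11d.

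The libraries of a group lay close together over these genes, as the plot of each library shows. The log2 ratio of Dor WT 1 to Dor WT 2 had a median of -0.0019 and a median size of 0.11, and Dor WT 1 was the higher in 27 of 54 genes. Between Dor cKO 1 and Dor cKO 2 the median size was 0.10, and again 27 of 54 genes were higher in the first. A ratio above 0.5 in size was found for 7 genes between the Dor WT libraries, down to -1.46 for Phf11d, and for 1 gene, also Phf11d, between the Dor cKO libraries. The 7 genes were Oas1a, Oas1b, Oasl1, Mx1, Rsad2, Sp100 and Phf11d, none of them above 6.79 CPM in Dor WT, while 34 of the 54 had at least 100 counts in every library.

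**Figure D3:**
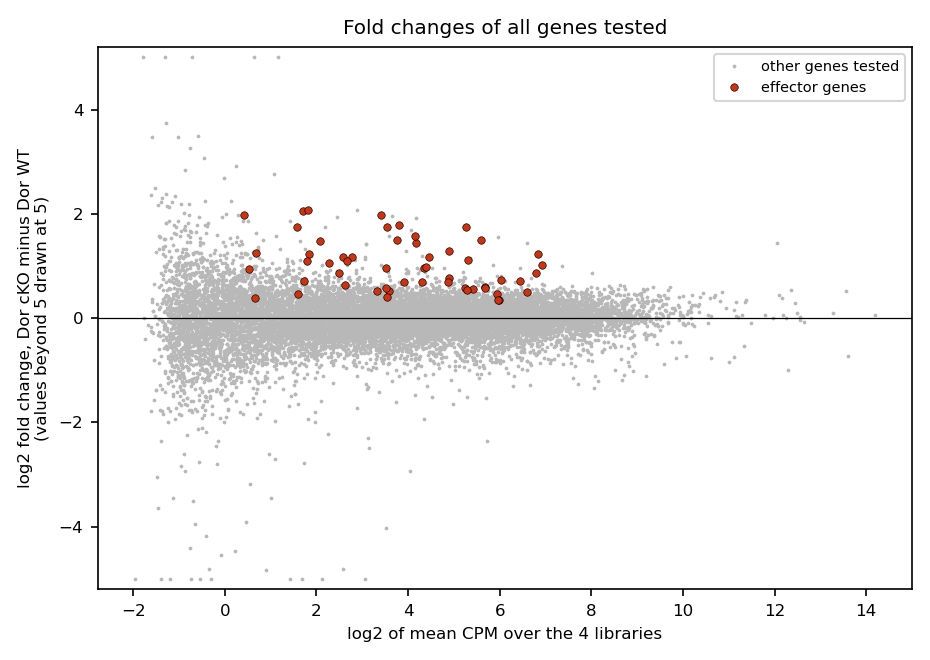
Log2 fold change of each of the 16751 tested genes against the log2 of its mean CPM over the 4 libraries, with the 54 effector genes in red. The effector genes lie between 0.34 and 2.08, all above the line at 0, at low and at high mean CPM alike.

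The system that conjugates the ubiquitin-like protein ISG15 rose in 4 of 4 genes. Values in brackets after a gene are its log2 fold change, coded as Dor cKO minus Dor WT, with the standard error (SE) and the adjusted p of edgeR. ISG15 itself is secreted as well as joined to other proteins, and the gene Isg15 (ENSMUSG00000035692.7, chromosome 4 from 156199424 to 156200818) had 4.43 and 4.24 CPM in Dor WT against 15.9 and 18.2 CPM in Dor cKO. Its log2 fold change was 1.98, SE 0.15, adjusted p 1.03e-11, and the groups were apart by a wide gap. Usp18, whose protein removes ISG15 and also dampens the receptor, had 6.1 and 6.4 CPM in Dor WT against 21.1 and 22 CPM in Dor cKO (1.78, SE 0.13, adjusted p 2.90e-12). Uba7, the activating enzyme that starts the conjugation, had 3.86 and 4.1 CPM in Dor WT against 7.53 and 6.98 CPM in Dor cKO (0.86, SE 0.19, adjusted p 0.000726), and no value of one group reached the other. Herc6, the mouse ligase for ISG15, rose least, from 11 and 9.12 CPM to 13.7 and 12.8 CPM (0.40, SE 0.13, adjusted p 0.0239). In TPM, which divides by transcript length, the Herc6 groups overlapped, with 7.67 and 2.95 for Dor WT against 4.81 and 4.66 for Dor cKO. The transcript length estimated for it ran from 2333 bases in Dor WT 1 to 4752 bases in Dor WT 2, and the TPM was low where the length was high. Its call was lost when either Dor cKO library or Dor WT 2 was left out.

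Some IFIT proteins bind foreign RNA by its 5′ end and block its translation. The 4 IFIT genes on the list, on chromosome 19, all rose. Ifit1 (34640871 to 34650009) had 18.8 and 16.9 CPM in Dor WT against 57.8 and 61 CPM in Dor cKO, a change of 1.74, SE 0.08, adjusted p 6.40e-17. For Ifit3b (34607970 to 34613401) the values were 16.6 and 18.1 CPM in Dor WT against 42.8 and 42 CPM in Dor cKO (1.28, SE 0.08, adjusted p 3.31e-13). Ifit3 (34583531 to 34588731), the most abundant of the 4, had 68.3 and 68.1 CPM in Dor WT against 154 and 165 CPM in Dor cKO (1.22, SE 0.04, adjusted p 5.37e-19). In these 3 genes each Dor cKO library was above 2 times each Dor WT library. Ifit2 (34550694 to 34576419) had 49.3 and 49.1 CPM in Dor WT, between the levels of Ifit1 and Ifit3. In Dor cKO it had 81.5 and 81.3 CPM (0.73, SE 0.05, adjusted p 9.26e-12), the smallest change of the 4. Ifit3 and Ifit3b are near copies, and their expected counts carried the same posterior SD in each library, between 3.82 and 7.42 counts. Their summed counts changed by 1.24, close to each alone.

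The OAS enzymes make the second messenger 2′-5′ oligoadenylate when they meet double-stranded RNA and so switch on RNase L. Of these 7 genes on chromosome 5, 6 rose and 1 was not called. Oasl1, an OAS-like protein without that activity that represses translation of the interferon regulator Irf7, had 0.921 and 1.7 CPM in Dor WT against 5.62 and 5.78 CPM in Dor cKO. Its change of 2.08, SE 0.28, adjusted p 6.52e-07 was the largest of the 54 genes and ranked 30 among all 16751. Oas3, the lowest of the 54 in Dor WT at a mean of 0.19 TPM, had 0.518 and 0.552 CPM in Dor WT against 2.29 and 1.97 CPM in Dor cKO (1.98, SE 0.45, adjusted p 0.000994). Both genes were apart between groups although neither reached 2 CPM in Dor WT. Oasl2 was the most abundant of the family, with 24.7 and 25.7 CPM in Dor WT against 72.5 and 69.7 CPM in Dor cKO (1.49, SE 0.07, adjusted p 6.83e-17). Oas1a had 2.82 and 1.66 CPM in Dor WT against 6.76 and 5.54 CPM in Dor cKO (1.48, SE 0.25, adjusted p 2.51e-05). Oas2 had 2.36 and 2.07 CPM in Dor WT against 5 and 4.43 CPM in Dor cKO (1.09, SE 0.25, adjusted p 0.00113). The lower Dor cKO value stayed above the higher Dor WT value in each of the 3. Oas1b, for which some laboratory strains carry a truncated allele, had 0.691 and 1.2 CPM in Dor WT against 2.62 and 1.93 CPM in Dor cKO (1.24, SE 0.40, adjusted p 0.0182). Its call was lost without Dor WT 1 or without Dor cKO 1.

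Oas1c was the exception of the family. Its values were 1.55 and 1.2 CPM in Dor WT against 1.91 and 1.69 CPM in Dor cKO, a difference of 0.39, SE 0.38, adjusted p 0.503 that did not pass the test, and its TPM values overlapped between groups. It carries the same 16-base run of matches as Oas1a, which rose. The Oas1 genes share stretches of sequence, so reads may be divided between them with some error; the counts of the 8 Oas1 genes in the tables, summed, changed by 1.21.

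Genes for proteins that bind double-stranded RNA or other nucleic acid rose in 7 of 7 cases, with a median of 0.56. Zbp1, a sensor of Z-form nucleic acid that can trigger necroptosis, had 1.84 and 2.39 CPM in Dor WT against 4.53 and 5.44 CPM in Dor cKO (1.22, SE 0.25, adjusted p 0.000365). Ifi204, of the family that senses DNA in the nucleus and cytosol, had 4.26 and 3.87 CPM in Dor WT against 8.76 and 8.57 CPM in Dor cKO (1.10, SE 0.18, adjusted p 1.67e-05). Its neighbour Ifi203 had 2.59 and 2.39 CPM in Dor WT against 4.14 and 4.05 CPM in Dor cKO (0.72, SE 0.25, adjusted p 0.0325). These 3 low genes were separated by group in every library. Eif2ak2, the kinase PKR that stops translation on double-stranded RNA, had 35.1 and 33.8 CPM in Dor WT against 52.6 and 49 CPM in Dor cKO (0.56, SE 0.07, adjusted p 1.41e-07). Helz2, a helicase and transcription coactivator, had 10.4 and 9.21 CPM in Dor WT against 13.4 and 14.6 CPM in Dor cKO (0.52, SE 0.13, adjusted p 0.00322). Adar, the enzyme that edits adenosine to inosine and so keeps the cell's own RNA from the sensors, had 56.5 and 54.6 CPM in Dor WT against 69.6 and 70.6 CPM in Dor cKO (0.34, SE 0.06, adjusted p 1.98e-05), the smallest change of the 54. Znfx1, a helicase at mitochondria, was alike in level and change, with 56.5 and 52.7 CPM in Dor WT against 70.1 and 68.4 CPM in Dor cKO (0.35, SE 0.06, adjusted p 2.10e-05). Adar and Znfx1 were both above 50 CPM in every Dor WT library, and their groups were apart by more than the spread within each. The call of Ifi203 was lost without Dor WT 2 or without either Dor cKO library, and that of Helz2 without Dor cKO 2. Adar shares 1365 exonic bases (16.8%) with Chrnb2 on the opposite strand and Znfx1 shares 82 with Zfas1; the sources used here do not say whether strand was used in counting, so reads there cannot be assigned with certainty.

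The Mx proteins are dynamin-like GTPases that trap viral ribonucleoproteins, and inbred mouse strains often carry defective copies. Mx1 had 1.04 and 1.66 CPM in Dor WT against 4.86 and 4.33 CPM in Dor cKO (1.74, SE 0.29, adjusted p 2.31e-05). Mx2, on the same chromosome, had 4.49 and 5.16 CPM in Dor WT against 7.95 and 7.18 CPM in Dor cKO (0.64, SE 0.18, adjusted p 0.00714), and its call was lost without Dor cKO 1. Both genes were separated by group, and Mx1 had the wider separation. Rsad2 encodes viperin, which turns CTP into a chain terminator, and Cmpk2, its neighbour on chromosome 12, encodes a nucleotide kinase that supplies CTP. Rsad2 had 6.79 and 4.01 CPM in Dor WT against 16.9 and 18.9 CPM in Dor cKO (1.75, SE 0.17, adjusted p 8.33e-08). Cmpk2 had 12.3 and 15.3 CPM in Dor WT against 28.4 and 25.5 CPM in Dor cKO (0.96, SE 0.11, adjusted p 3.29e-08). The Dor WT libraries differed from each other more than the Dor cKO libraries did in both, yet neither pair reached the other.

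The membrane proteins held the most abundant genes in TPM. In CPM, Lgals3bp had the highest mean of the 54 in both groups, 81.0 in Dor WT and 164 in Dor cKO. Genes for membrane proteins rose in 7 of 7 cases, with a median of 0.71. Rtp4, a chaperone of G protein-coupled receptors that also binds viral RNA, changed most, with 6.85 and 7.27 CPM in Dor WT against 17 and 23 CPM in Dor cKO (1.50, SE 0.14, adjusted p 2.43e-09). Bst2, or tetherin, which holds budding virions on the cell surface, had 24.9 and 25 CPM in Dor WT against 54.2 and 53.9 CPM in Dor cKO (1.12, SE 0.07, adjusted p 2.07e-13). The IFITM proteins stop viral fusion in endosomes; Ifitm3 had 79.8 and 77 CPM in Dor WT against 143 and 143 CPM in Dor cKO (0.87, SE 0.04, adjusted p 4.59e-16). Replicates of Bst2 and of Ifitm3 were almost equal within each group. Ly6e, a surface protein anchored by a lipid, had 68.3 and 63.2 CPM in Dor WT against 102 and 113 CPM in Dor cKO (0.71, SE 0.05, adjusted p 4.19e-11). Tor3a, an ATPase of the endoplasmic reticulum, had 22.1 and 22.3 CPM in Dor WT against 37 and 35.2 CPM in Dor cKO (0.70, SE 0.08, adjusted p 5.49e-08). Ifitm1 had 40.9 and 40.2 CPM in Dor WT against 60.9 and 62.6 CPM in Dor cKO (0.61, SE 0.06, adjusted p 4.96e-09), and it was the least abundant of the 3 IFITM genes. Ifitm2 had 77.7 and 83.4 CPM in Dor WT against 114 and 114 CPM in Dor cKO (0.50, SE 0.05, adjusted p 6.80e-10). In CPM, no Dor cKO value of the 7 genes fell to the level of a Dor WT value. Ifitm3 and Ifitm2 changed places as the most abundant of all 54: in TPM, Ifitm2 led in Dor WT at a mean of 295 to 271, and Ifitm3 led in Dor cKO at 475 to 400.

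Small proteins tied to mitochondria and apoptosis rose in 3 of 3 cases. Ifi27l2a, which is strongly induced in microglia by interferon, had 8.17 and 9.48 CPM in Dor WT against 25.3 and 27.7 CPM in Dor cKO (1.58, SE 0.11, adjusted p 3.87e-12). Xaf1, a binding partner of the apoptosis inhibitor XIAP, had 9.61 and 9.81 CPM in Dor WT against 27.8 and 24.7 CPM in Dor cKO (1.43, SE 0.11, adjusted p 1.58e-11). Ifi27, of the same family as Ifi27l2a and its neighbour on chromosome 12, had 40.2 and 42.5 CPM in Dor WT against 63.7 and 59.7 CPM in Dor cKO (0.58, SE 0.06, adjusted p 2.16e-08). Each of the 3 was separated by group, and the difference in size between the 2 neighbours was not tested. Among the genes for ADP-ribosylation, 4 of 4 rose. Parp14, an enzyme that adds single ADP-ribose units, had 13.6 and 13.3 CPM in Dor WT against 29.9 and 30.8 CPM in Dor cKO (1.17, SE 0.10, adjusted p 5.09e-11). Parp9 had 21.5 and 22.7 CPM in Dor WT against 37.2 and 37.8 CPM in Dor cKO (0.76, SE 0.08, adjusted p 8.95e-09). Dtx3l, its ubiquitin ligase partner, had 13.5 and 16.5 CPM in Dor WT against 24.1 and 24.6 CPM in Dor cKO (0.69, SE 0.11, adjusted p 6.37e-06). Parp12, whose product binds RNA through zinc fingers, had 31.9 and 29.5 CPM in Dor WT against 42.9 and 47.9 CPM in Dor cKO (0.57, SE 0.08, adjusted p 5.97e-07). The partners Parp9 and Dtx3l rose by amounts within 1 SE of each other; their genes overlap by 458 exonic bases on opposite strands, and their expected counts carried the same posterior SD in each library, at most 2.01 counts.

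Of the TRIM and nuclear body genes, 4 rose and 1 was not called. Trim30a, which limits signalling from innate immune receptors, had 4.78 and 3.73 CPM in Dor WT against 11 and 8.04 CPM in Dor cKO (1.17, SE 0.19, adjusted p 1.49e-05). Sp100, a scaffold of nuclear bodies, had 2.36 and 3.82 CPM in Dor WT against 6.29 and 6.74 CPM in Dor cKO (1.05, SE 0.22, adjusted p 0.000476). The antibody receptor Trim21 had 7.94 and 10.4 CPM in Dor WT against 12.4 and 15.3 CPM in Dor cKO (0.59, SE 0.15, adjusted p 0.00257), and its call was lost without Dor cKO 2. Trim25, the ligase that ubiquitinates RIG-I, had 52.8 and 51.6 CPM in Dor WT against 71.2 and 72.1 CPM in Dor cKO (0.46, SE 0.06, adjusted p 1.55e-07), with little spread in either group. Phf11d, a gene of a clustered family with a zinc finger, had 0.518 and 1.43 CPM in Dor WT against 2.52 and 1.3 CPM in Dor cKO. Here the second Dor WT library was above the second Dor cKO library, and the difference of 0.93, SE 0.45, adjusted p 0.137 was not called; without Dor WT 2 it was called at 1.87. The Schlafen and SAMD9L genes, whose products cleave or bind RNA to restrain translation and growth, rose in 4 of 4 cases. Slfn8 had 3.91 and 3.45 CPM in Dor WT against 8.53 and 8 CPM in Dor cKO (1.17, SE 0.19, adjusted p 1.20e-05). For Slfn5 the values were 11.2 and 11.9 CPM in Dor WT against 18.3 and 19 CPM in Dor cKO (0.69, SE 0.12, adjusted p 2.38e-05). All 4 were separated by group in CPM, also Samd9l, the most abundant of them, with 32.2 and 31.2 CPM in Dor WT against 45.4 and 46.9 CPM in Dor cKO (0.54, SE 0.07, adjusted p 3.63e-07). Slfn2, needed for the quiescence of T cells, had 7.66 and 8.75 CPM in Dor WT against 11 and 12.6 CPM in Dor cKO (0.51, SE 0.14, adjusted p 0.00716). The call of Slfn2 was lost without Dor cKO 2, and Slfn8 summed with its near copy Slfn9 changed by 0.66 instead of 1.17.

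Genes for secreted products rose in 2 of 2 cases, both by a log2 value near 1. Lgals3bp, which encodes a glycoprotein that binds galectins, had 79.6 and 82.4 CPM in Dor WT against 162 and 166 CPM in Dor cKO (1.01, SE 0.04, adjusted p 5.88e-18). Cxcl10, the chemokine that draws in lymphocytes bearing CXCR3, had 14.7 and 13.8 CPM in Dor WT against 28.2 and 27.5 CPM in Dor cKO (0.97, SE 0.10, adjusted p 3.49e-09). The replicates of each group were within a few CPM of each other in both genes, and Cxcl10 shares 133 exonic bases with Art3 on the opposite strand. Of 3 other induced genes, Ifi44, a cytoplasmic protein of unclear activity, had 1.32 and 1.2 CPM in Dor WT against 4.86 and 5.64 CPM in Dor cKO (2.06, SE 0.27, adjusted p 7.19e-07), the largest change after Oasl1. Ifi35, whose product pairs with NMI, had 7.02 and 8.47 CPM in Dor WT against 15.1 and 15.3 CPM in Dor cKO (0.97, SE 0.14, adjusted p 1.73e-06). Epsti1, first known from epithelial cells next to stroma, had 2.71 and 2.39 CPM in Dor WT against 3.67 and 3.37 CPM in Dor cKO, a difference of 0.47, SE 0.26, adjusted p 0.209 that did not pass the test although its groups did not overlap.

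Genes of low and of high level were both among those that rose. The 27 genes below the median Dor WT level had a median log2 fold change of 1.09, and the 27 at or above it 0.76. Over the 54 genes, Spearman's rho of the Dor WT level in TPM with the fold change was -0.26, a description across genes that share the same 4 libraries. Summed over the 54, the level was 1594 and 1617 TPM in Dor WT against 2750 and 2814 TPM in Dor cKO, and their share of all counts was 0.110% and 0.110% against 0.194% and 0.197%. The 5 most abundant genes took 62.7% and 62.5% of the sum in Dor WT against 55.3% and 55.9% in Dor cKO, so the sum was spread over more genes in Dor cKO. Genes with a mean of at least 50 TPM numbered 9 in Dor WT and 12 in Dor cKO, and genes under 2 TPM numbered 11 and 3. On the TPM scale 49 of the 54 genes had both Dor cKO libraries above both Dor WT libraries. Herc6, Oas1c, Trim30a, Phf11d and Slfn5 overlapped. The share of all tested genes separated in this way was counted in CPM only, where it was 30.2%. With limma on log2(TPM + 1), 32 of the 54 were called higher, against 3.98% of all tested genes, and Herc6 changed by -0.029. The credibility bounds that the deposited tables give for TPM were apart in 31 of the 54, against 5.21% of all tested genes.

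**Figure D4:**
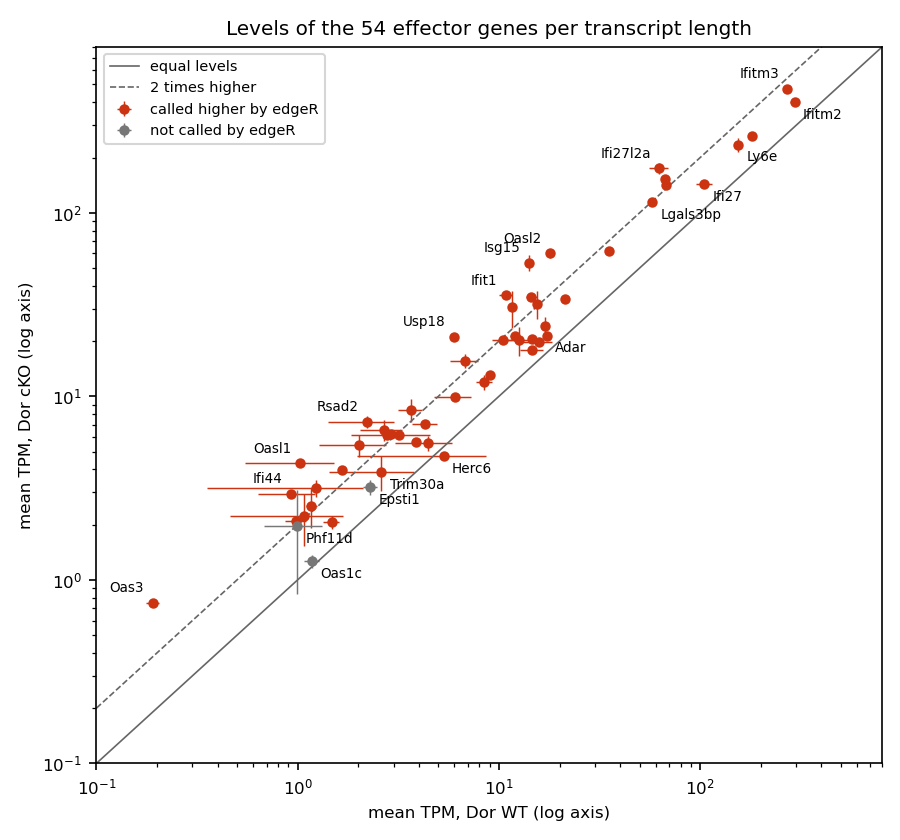
Mean TPM of each effector gene in Dor WT (x axis) and Dor cKO (y axis), both on log axes, with the SD of the 2 libraries as bars; the solid line marks equal levels and the dashed line a level 2 times higher. Oas1c, Phf11d and Epsti1, in grey, are the 3 genes that were not called, and Herc6 lies below the line of equal levels.

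Genes with the response element core had a median log2 fold change of 1.14 (18 genes, from 0.39 to 1.98), and the 22 genes with an entry but no match had 0.71 (from 0.34 to 2.08). The ranges covered each other: Oasl1 and Ifi44, with the 2 largest changes of the 54, had an entry and no match, and Oas1c had 2 matches and no call. No test was made of this difference.

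The rest of the pathway was read in the same fit, in lists chosen by known function and with earlier results of these data known. Of 21 interferon genes, 20 had no count in any library, and Ifng had 4 counts in Dor cKO 1 only; a count of 0 allows up to 0.174 CPM in the shallowest library, counting error only. Among 22 genes of the receptors and their signalling, 13 were higher and none lower, with a median of 0.24. Among all tested genes, 14.3% were higher and 13.4% lower. The 3 most abundant of those called were Stat3 (0.27, SE 0.03, adjusted p 1.48e-07), Jak1 (0.20, SE 0.04, adjusted p 4.36e-05) and Ifnar1 (0.18, SE 0.04, adjusted p 0.00127). Of 15 nucleic acid sensors 9 were higher and none lower (median 0.36), among them Ddx58, which encodes RIG-I (0.71, SE 0.07, adjusted p 8.92e-09), Samhd1 (0.29, SE 0.07, adjusted p 0.00343) and Mavs (0.25, SE 0.08, adjusted p 0.0191).

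Interferon-inducible GTPases, which attack the vacuoles of intracellular microbes, were higher in 15 of 18 cases with none lower, and their median of 0.94 was close to that of the effector genes. Gbp6 had 37.9 and 38.5 CPM in Dor WT against 80.2 and 74.8 CPM in Dor cKO (1.02, SE 0.06, adjusted p 6.10e-14). Irgm1 had 23.7 and 27 CPM in Dor WT against 56.5 and 56.6 CPM in Dor cKO (1.15, SE 0.07, adjusted p 2.14e-13). Gbp2 had 35.1 and 34.2 CPM in Dor WT against 49.4 and 47.5 CPM in Dor cKO (0.49, SE 0.07, adjusted p 1.48e-06), the smallest of these 3 changes. MHC class I genes were higher in 17 of 20 cases with none lower, at a median of 0.51. B2m, the light chain of class I molecules, had 203 and 201 CPM in Dor WT against 263 and 268 CPM in Dor cKO (0.39, SE 0.03, adjusted p 5.22e-12); H2-D1, a heavy chain, changed by 0.49, SE 0.03, adjusted p 3.87e-13 and Tapbp, the peptide loading chaperone, by 0.50, SE 0.04, adjusted p 2.21e-12. Together, 54 of 75 tested genes of these lists were higher and none was lower, beside 14.3% higher and 13.4% lower among all tested genes. When a change of at least 1.5-fold was required by the test, 67 genes (0.4%) were higher in Dor cKO, of which 23 were effector genes, 15 were other genes of the pathway and 29 were on neither list.

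**Figure D5:**
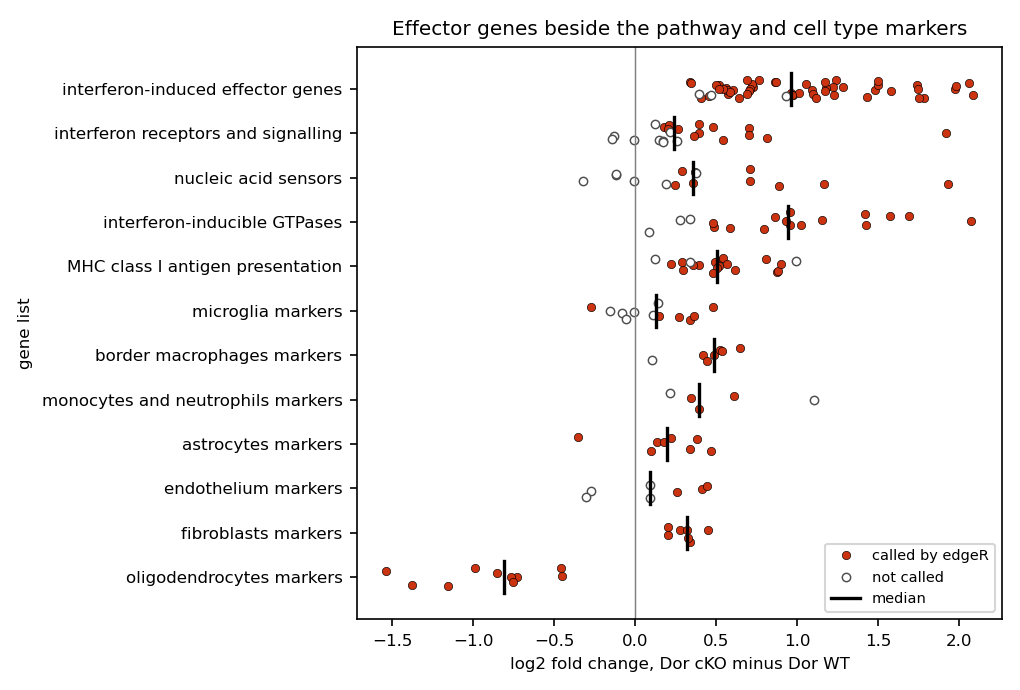
Log2 fold change of each tested gene in the effector list, 4 further lists of the interferon pathway and 7 lists of cell type markers; filled points were called by edgeR at an adjusted p under 0.05, open points were not, and black bars are medians. The effector genes have the highest median, 0.96, followed by the GTPases at 0.94, and the oligodendrocyte markers lie at the other end at -0.81.

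Markers of cell types moved with the groups, by medians smaller than the median effector gene except in the pituitary list. Of all tested genes, 14.3% were higher and 13.4% lower. Microglial markers were higher in 5 and lower in 1 of 12 cases (median 0.13), and their summed level ran from 937 to 945 TPM in Dor WT and from 1024 to 1037 in Dor cKO. Markers of border macrophages were higher in 6 of 7 (157 to 162 against 218 to 224 TPM), among them Mrc1 (0.49, SE 0.04, adjusted p 1.26e-10). Those of monocytes and neutrophils were higher in 3 of 5 tested (277 to 294 against 344 to 355 TPM). Astrocyte markers were higher in 7 and lower in 1 of 8, with a median of 0.20. Endothelial markers were higher in 3 of 7 and lower in none, with a median of 0.09 and a range from -0.30 to 0.44. In 2 of these 7, both Dor cKO libraries were below both Dor WT libraries, a pattern whose share over all tested genes was not counted. The endothelial sum was 111 to 117 against 130 to 132 TPM. Of it, Cdh5 alone held a mean of 44.8 against 60.0 TPM. Fibroblast markers were higher in 7 of 7 (4263 to 4293 against 5443 to 5502 TPM). The part of these cells in the rise of the effector genes was not tested.

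Lymphoid markers were low in both groups. T cell markers summed to 4.27 to 4.65 TPM in Dor WT and 4.12 to 4.62 TPM in Dor cKO, with 3 of 7 tested and none called. None of the 5 natural killer cell markers passed the filter, and Ncr1 was at 0 in every library, and of 4 B cell markers 2 were tested and none was called. In the list for plasmacytoid dendritic cells, known producers of type I interferon, Siglech had 6.22 and 7.97 CPM in Dor WT against 6.29 and 6.98 CPM in Dor cKO (-0.10, SE 0.17, adjusted p 0.726, not called). Which cells of the nerve the Siglech RNA came from was not tested. Ccr9, of the same list, had 1.55 and 3.04 CPM in Dor WT against 4.14 and 3.08 CPM in Dor cKO (0.63, SE 0.30, adjusted p 0.124, not called). Its groups were narrowly apart in CPM, where both Dor cKO libraries were above both Dor WT libraries in 30.2% of all tested genes. In TPM they overlapped (0.81 and 1.55 against 2.0 and 1.52). Ly6d, with 0 and 2 counts for Dor WT against 2 and 9 for Dor cKO, was not tested, and Klk1 was at 0 in every library. Oligodendrocyte markers, which define the main glia of the nerve, were all present and were lower in 10 of 10 cases (median -0.81), with a summed level of 24385 to 24607 TPM in Dor WT and 13957 to 14009 TPM in Dor cKO. Pituitary markers, tested in 4 of 8 cases and lower in all 4, were found mainly in Dor WT, at 84.7 to 91.1 TPM against 3.17 to 4.22 TPM. The part of either difference in the levels of the effector genes was not tested.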

How the data were processed

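The deposited tables hold 1 library each and, per the file headers, list for every gene an RSEM expected count, a TPM value, its length and a posterior SD of the count. An expected count shares reads between genes they match equally well, and TPM was scaled by the authors' pipeline for length and library. Tools named in the submitters' processing notes, without roles, are RSEM 1.3.1, STAR 2.7.9a and Trimmomatic 0.36, with the build GRCm38. Annotation release and use of strand in counting are not given in the sources used here. From the labels, 2 µg of RNA, products of 200 to 500 bases and paired reads of 150 bases were used. Symbols and coordinates came from GENCODE M21 on the same build, which matched 55141 of 55401 identifiers.

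Deposited expected counts were rounded, filtered with filterByExpr (minimum count 10, minimum total 15) and scaled by TMM in edgeR 4.0.16 (R 4.3.3). Library totals were 17263830 and 21595832 (Dor WT) and 21162594 and 20928332 (Dor cKO). The groups were compared with edgeR's robust quasi-likelihood test with group as the only term, and p-values were adjusted by Benjamini-Hochberg over the 16751 tested genes, with 0.05 as the threshold of a call. Changes are given on the log2 scale, Dor cKO minus Dor WT, and their standard errors (SE) are the fold change over the square root of the F statistic. DESeq2 1.42.0, limma 3.58.1 and 15 further settings were alternatives. Libraries of a group differed by more than counting noise (chi-square per gene 2.60 and 2.19), so no table was treated as a second copy of another; this does not show that they are separate animals.

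The members and lists were chosen with earlier results of these data known. All 54 genes may be named. Fold change, SE and adjusted p were given, in each role, for up to 4 called genes with the largest change, for every gene not called and for every gene whose call ends under an alternative. From other lists up to 3 called genes of highest mean CPM were named, or the most abundant where fewer than 2 were called. Trp53inp2 was given beside the label. The values of 1 gene of the pathway lists are not reported here.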

Additional observations from a re-analysis of the deposited data

How the results depend on the processing

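Counts of called genes depended on the setting more than directions did. The effector genes called numbered 51, and 32 with limma on log2(TPM + 1) and 23 at a tested minimum of 1.5-fold. The other pathway genes called were 54, and 28 and 15 under the same settings. Over all genes 4647 were called, and 2941 by DESeq2, 1388 by limma, 1594 with the coefficient of variation set at 0.1 and 231 at the minimum of 1.5-fold. The median log2 fold change of the effector genes was 0.96, and 0.74 with limma. Leaving out 1 library at a time gave 46 to 50 effector genes, 40 to 51 other pathway genes, 3474 to 4257 of all genes and medians from 0.83, without Dor WT replicate 1, to 0.99; a lone library was assumed to vary like the other group. Herc6 turned to -0.029 with limma (adjusted p 0.975), where its estimated length differed between libraries. DESeq2 called 45 effector genes, against 10.7% of all genes it gave an adjusted p, and lost Herc6, Oas1b, Ifi203, Mx2 and Slfn2; Oas3 and Phf11d had no adjusted p. With the coefficient of variation set at 0.1, 49 were called, Adar, Znfx1 and Herc6 were lost and Phf11d was gained.

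The same replicate numbers in both groups are not stated to pair libraries, and the deviations of same-numbered libraries had a correlation of -0.02 over genes. With the replicate number as a block, 4971 genes were called, 51 of them effector genes and 54 other pathway genes, and the median was 0.97; no call among the effector genes changed. The effector genes had 916 values under 17 alternatives. Of these, 846 kept their direction and side of the threshold, 66 lost the call, 3 gained it and 1 reversed. The alternative that summed near-identical neighbours gave every gene of a family the value of its sum. Under it, Oas1c took the value of the summed Oas1 genes (1.21, edgeR adjusted p 8.96e-07), which is 1 of the gains. In 20 effector genes the call held under all 17. The cause of these changes was not tested. With 2 libraries a group, genes with few counts have wide errors, as the SE of 0.45 for Oas3 and Phf11d shows.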
